A study of Mus musculus with 15 samples.

Results

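The 10 BCL-2 family genes described here are Bcl2, Mcl1, Bcl2l1, Bcl2a1b, Bax, Bak1, Bcl2l11, Bid, Bbc3 and Pmaip1. They were taken by symbol from the 45706 mouse genes in a table of read counts, and all 10 had enough reads to be tested. The libraries were made in bulk from regulatory T cells (Tregs), which hold immune responses in check and are defined by the transcription factor Foxp3. Per the labels, cells positive for a Foxp3 reporter were sorted from adult C57BL/6 mice of the line RelB-dDC (dDC below) or from their littermate controls, all of them carrying that reporter. The labels neither spell the line's name out nor state the promoter behind it; it is read here as loss of RelB, an NF-kappaB subunit, in dendritic cells, so the Relb count of the sorted Tregs does not check the genotype. The 7 dDC libraries comprised 3 from spleen, 2 from thymus and 2 from the peritoneal cavity, and the 8 control libraries comprised 3 from spleen, 3 from thymus and 2 from the peritoneal cavity.

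BCL-2 family proteins decide whether the outer membrane of the mitochondrion stays intact. The protective proteins BCL-2, MCL-1, BCL-XL (from Bcl2l1) and A1 (from Bcl2a1b and its close copies) bind the pore formers BAX and BAK (from Bak1) and the BH3-only proteins, which set the pore formers free or switch them on. Among the BH3-only proteins, BIM (from Bcl2l11) responds to loss of cytokine, PUMA (from Bbc3) and NOXA (from Pmaip1) are targets of p53, and BID is cut by caspase-8 below death receptors. In mouse Tregs, interleukin-2 signalling and MCL-1 are known to support survival against BIM.

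The BH3 segment takes part in binding between members, and its core is shown for the genes on which the results below turn. Each line gives 30 bases of coding sequence, 5′ to 3′ on the gene's own strand, from the mouse genome GRCm38 with GENCODE M21 gene models; capitals mark the codon for the conserved leucine and the 2 neighbouring codons that usually encode glycine and aspartate. The stretches lie at chr1:106712578-106712607 (minus strand, exon 1) for Bcl2, chr2:128147144-128147173 (plus, exon 3) for Bcl2l11, chr6:120897292-120897321 (minus, exon 4) for Bid, chr2:152829700-152829729 (minus, exon 2) for Bcl2l1, chr9:89199507-89199536 (plus, exon 1) for Bcl2a1b and chr9:88731543-88731572 (minus, exon 1) for Bcl2a1d.
Bcl2: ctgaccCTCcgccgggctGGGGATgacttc
Bcl2l11: caggagCTGcggcggatcGGAGACgagttc
Bid: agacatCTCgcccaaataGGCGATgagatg
Bcl2l1: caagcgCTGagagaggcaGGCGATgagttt
Bcl2a1b: aagaatCTGaagtcatacTTGGATgacttt
Bcl2a1d: aagaatCTGaagtcatacTTGGATgacttt
Bcl2, Bcl2l11, Bid and Bcl2l1 have the glycine and aspartate codons, while the A1 genes have a leucine codon in place of the glycine. Bcl2a1b and Bcl2a1d are identical over this stretch. Over their whole coding sequence of 516 bases they differ at 6 positions (98.8% identical) and share an unbroken identical run of 217 bases, and Bcl2a1b and Bcl2a1a differ at 11 (97.9% identical). Reads of Bcl2a1b can therefore stem from its copies, and its values are uncertain to that extent.

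Libraries held 15714286 to 24332044 gene counts. Foxp3 stood at 179 to 327 CPM (reads of a gene scaled to a common library total, with TMM factors that correct for composition), Cd3e at 1285 to 2007 CPM and Cd4 at 346 to 1101 CPM over the 15 libraries, so the Treg and T cell label held in each. Relb stood at 7.72 to 37.6 CPM. Sums over 10 B cell markers were 1392 and 2408 CPM in peritoneal dDC libraries and 1177 and 2260 CPM in peritoneal controls, 441 to 834 CPM in spleen dDC and 403 to 1204 CPM in spleen control libraries, and 67.9 and 89.4 CPM in thymus dDC and 42.4 to 74.5 CPM in thymus control libraries. Peritoneal control library 2 stands apart: its 9 macrophage markers summed to 1562 CPM, against 58.6 CPM in peritoneal control library 1 and 135 and 238 CPM in the peritoneal dDC libraries, and 78 of 7187 well expressed genes (1.09%) lay there at less than 1 part in 10 of the median of the other libraries. The same count was 74 in thymus dDC library 1 and 2 to 51 in the other libraries. Nothing in the labels says that libraries of a group came from separate animals, so p-values measure the spread between these samples. In bulk RNA, fewer cells of a type and less RNA per cell cannot be told apart.

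For the order of the genes by level, CPM was divided by kilobases of exon. Exon bases shared with other genes were not taken out. For Bcl2a1b, 401 of 817 exon bases also belong to the gene Gm29094, so its place in the order is less certain. Averaged over the 6 groups, the order was Bax (118 CPM per kb), Mcl1 (88.4), Bcl2 (31.1), Bcl2a1b (27.7), Bid (25.4), Bcl2l1 (19.01), Pmaip1 (7.99), Bcl2l11 (4.83), Bbc3 (1.87) and Bak1 (1.25). The group means spanned 102 to 148 CPM per kb for Bax and 60.9 to 105 for Mcl1, which overlap. Bcl2 (14.9 to 47.6), Bcl2a1b (10.96 to 39.6), Bid (14.7 to 30.9) and Bcl2l1 (6.32 to 26.7) likewise overlapped with one another and could not be ordered beyond their spread. Pmaip1 (5.72 to 12.6) overlapped with Bcl2l1, Bcl2a1b and Bcl2l11 (3.16 to 6.59), Bcl2l11 also with Bcl2l1, and Bbc3 (0.691 to 3.43) with Bcl2l11 and with Bak1 (0.701 to 1.58). Each gene thus overlapped with its next neighbour in the order, apart from Mcl1 and Bcl2. The pore former Bax carried many more reads per length than its partner Bak1, in every group.

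**Figure D1:**
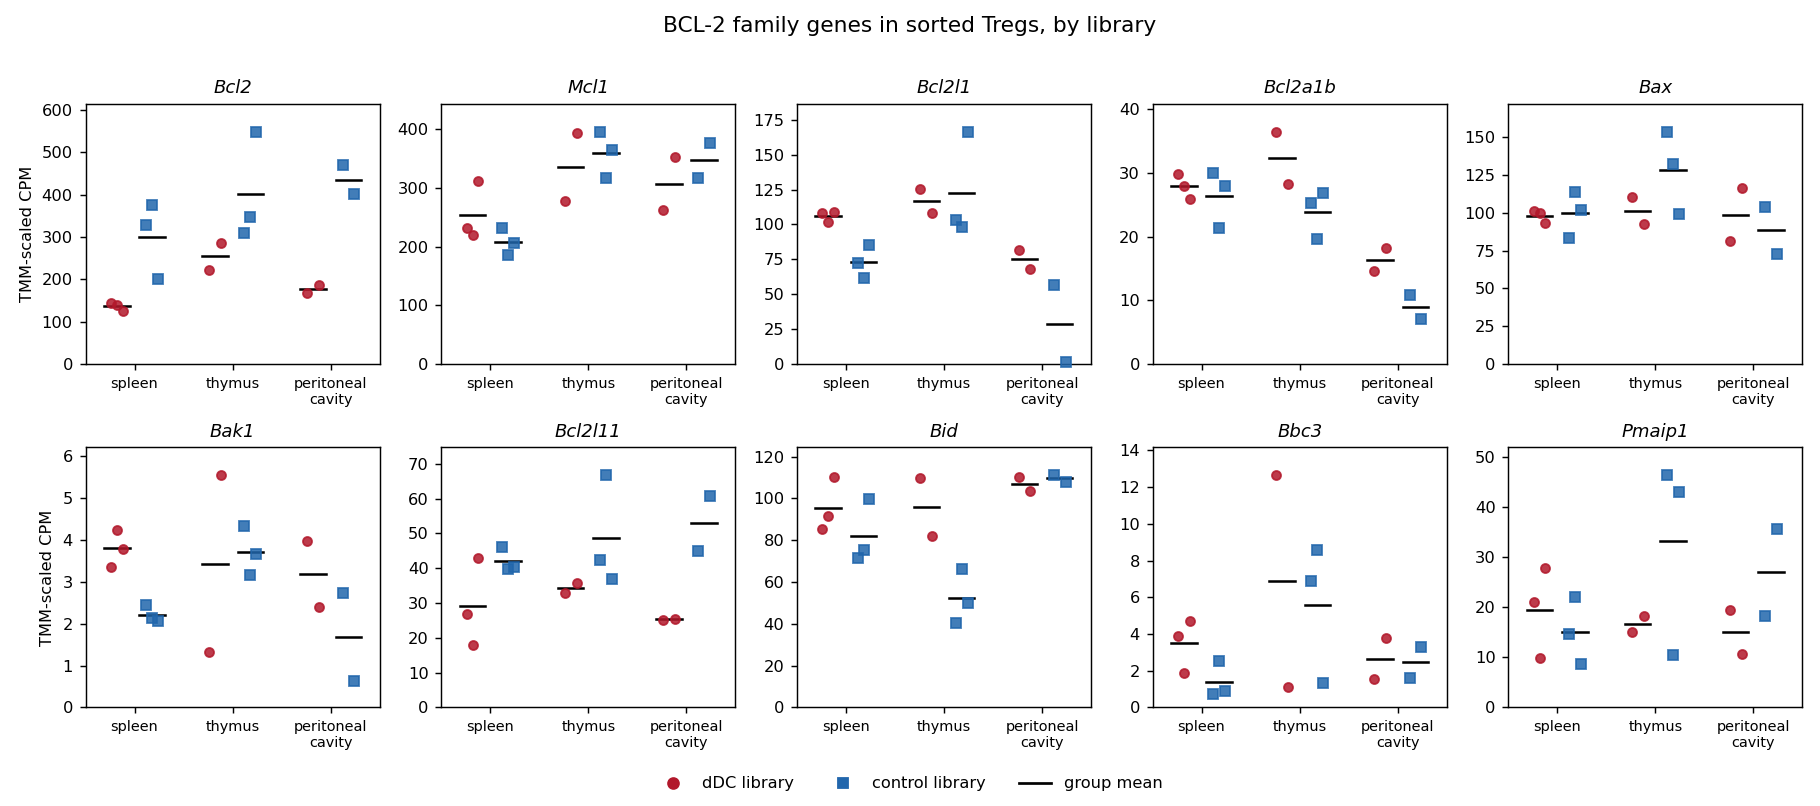
Levels of the 10 BCL-2 family genes in each library, as TMM-scaled CPM on a linear axis that starts at 0, with dDC libraries as red circles and control libraries as blue squares beside them for each tissue; black bars are group means. In the Bcl2 panel the dDC libraries lie below the controls in each of the 3 tissues, and in the Bcl2a1b panel all peritoneal libraries lie below those of spleen and thymus.

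The first question was whether the survival and death genes of Tregs differ when the mice carry the dDC alleles. Bcl2 was the only one of the 10 genes whose level passed the test, and it fell. Bcl2 (ENSMUSG00000057329, chr1:106538178-106714274, minus strand, mm10) stood at 144, 140.5 and 126 CPM in dDC spleen libraries, against 328, 375 and 200.2 CPM in control spleen libraries. In thymus it stood at 223 and 286 CPM in dDC libraries, against 309.7, 347 and 549 CPM in controls. In the peritoneal cavity it stood at 168 and 188 CPM in dDC libraries, against 469.6 and 402 CPM in controls. Every dDC library lay below every control library of its own tissue, in all 3 tissues; of the 18423 genes tested, 45 (0.244%) did so.

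Averaged over the tissues with equal weight, the log2 difference of Bcl2 was -1.03 with a standard error of 0.16, a level 2.04-fold lower in dDC Tregs (edgeR quasi-likelihood test, adjusted p = 0.0467 over all genes). That makes 1 of 10 members, against 14 of 18423 genes (0.076%) called in either direction and 0.0271% called lower. The call lies close to the threshold of 0.05. It held when peritoneal control 1 (adjusted p = 0.0353), spleen control 3 (0.0145), thymus control 1 (0.0409) or thymus dDC 2 (0.0442) was left out. It was lost on leaving out peritoneal dDC 1 (0.0941), peritoneal control 2 (0.12), peritoneal dDC 2 (0.18), spleen control 1 (0.0918), spleen dDC 1 (0.106), spleen control 2 (0.107), spleen dDC 2 (0.132), spleen dDC 3 (0.109), thymus dDC 1 (0.16), thymus control 2 (0.088) or thymus control 3 (0.0539). The log2 difference itself stayed between -1.10 and -0.93 over all of these. DESeq2 called it with an adjusted p of 1.07e-07 and limma-voom did not (0.0644).

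Within single tissues edgeR called no gene in spleen or thymus (0% of genes in each; 786 and 1211 genes had an unadjusted p under 0.05) and 1 gene, not a member, in the peritoneal cavity (0.00543%; 1171 genes under an unadjusted 0.05). Bcl2 differed by -1.14 (SE 0.25) in spleen, by -0.66 (SE 0.28) in thymus and by -1.29 (SE 0.30) in the peritoneal cavity on the log2 scale, with adjusted p of 0.823, 0.748 and 0.306. DESeq2 called 32, 153 and 194 genes in the 3 tissues, Bcl2 among them in spleen and in the peritoneal cavity. The tests of whether the tissues differ from each other in this gave a log2 value of 0.48 (SE 0.36) for thymus minus spleen, -0.15 (SE 0.38) for peritoneal cavity minus spleen and -0.63 (SE 0.40) for peritoneal cavity minus thymus. None passed the threshold (adjusted p of 0.897 or above), and edgeR called no gene in these interactions (0% each; 932, 900 and 1053 genes under an unadjusted 0.05). The exons of Bcl2 share 558 bases with D630008O14Rik on the other strand, a gene at 0 to 11.4 CPM, and the library chemistry does not mark the strand.

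**Figure D2:**
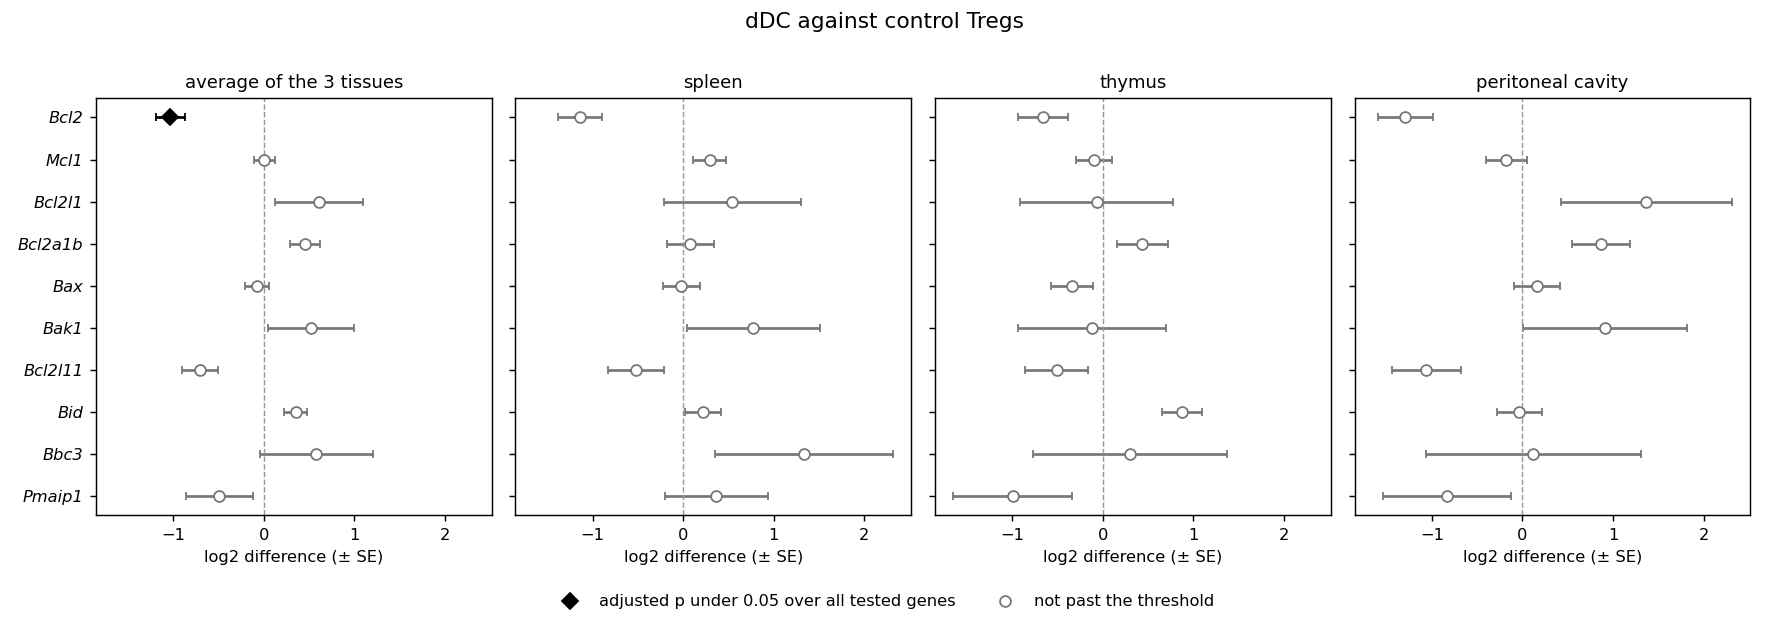
Log2 difference of each gene between dDC and control Tregs, with bars of 1 standard error, for the average of the 3 tissues and for each tissue; black diamonds mark an adjusted p under 0.05. The Bcl2 point lies left of 0 in all 4 panels, at -1.03 in the average, and is the sole diamond.

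The other protective genes did not pass the test. Mcl1 (ENSMUSG00000038612, chr3:95658788-95663176, plus strand), whose protein is short-lived and needed by most lymphocytes, stood at 232, 220.4 and 312 CPM in dDC spleen libraries, against 232, 186 and 206 CPM in controls. Its values were 278 and 394 CPM in dDC thymus libraries against 396, 317 and 366 CPM in controls, and 262 and 353 CPM in peritoneal dDC libraries against 317 and 377 CPM in controls. The groups overlapped in each tissue, and the average log2 difference was 0.01 (SE 0.12). The direction of so small a value turned with other scalings and left-out libraries, down to -0.08 and up to 0.08.

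Bcl2l1 (ENSMUSG00000007659, chr2:152780668-152831728, minus strand), which encodes BCL-XL, was at 108, 102 and 109 CPM in dDC spleen libraries, against 72.2, 61.5 and 85.2 CPM in controls, with no overlap. Thymus dDC libraries had 126 and 109 CPM of it and thymus controls 103, 98.2 and 166 CPM, which overlap. Peritoneal dDC libraries had 81.7 and 68.3 CPM, while the controls had 56.8 and 1.20 CPM. The last value rests on 19 reads in peritoneal control 2, the library with macrophage markers at 1562 CPM; the part of that library's make-up in the value was not tested.

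The average log2 difference of Bcl2l1 was 0.61 (SE 0.49, edgeR adjusted p = 0.782). Leaving out peritoneal control 1, so that the library with 19 reads alone stands for peritoneal controls, moved it to 2.14 (adjusted p = 0.00118), and the peritoneal difference from 1.37 (SE 0.94) to 5.95 (adjusted p = 0.00118). Without peritoneal control 2 the average was 0.29 and the peritoneal difference 0.40.

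Bcl2a1b (ENSMUSG00000089929, chr9:89199209-89207827, plus strand), which encodes the A1 protein, an NF-kappaB target, showed no overlap in thymus, where dDC libraries had 36.5 and 28.2 CPM and controls 25.2, 19.6 and 26.8 CPM. The same held in the peritoneal cavity, with 14.6 and 18.2 CPM in dDC libraries and 10.8 and 7.10 CPM in controls. Spleen libraries overlapped, with 29.9, 28.0 and 25.9 CPM in dDC and 29.96, 21.4 and 28.0 CPM in control. Its log2 difference was 0.46 (SE 0.17) in the average, 0.44 in thymus and 0.87 (SE 0.32) in the peritoneal cavity, with edgeR adjusted p of 0.419, 0.78 and 0.674. Of its 817 exon bases 401 also belong to Gm29094, a gene at 0 to 0.0571 CPM.

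Of the pore formers, Bax (ENSMUSG00000003873, chr7:45461695-45466898, minus strand) differed little. Its group means were 98.2 ± 4.07 CPM in dDC spleen and 99.7 ± 15.6 CPM in control spleen (SD, n = 3 each). Thymus means were 101 ± 12.7 CPM in dDC (n = 2) and 128 ± 27.3 CPM in controls (n = 3), and peritoneal means were 98.6 ± 24.8 CPM in dDC and 88.3 ± 21.7 CPM in controls (n = 2 each). The ranges overlapped in every tissue, and the average log2 difference was -0.07 (SE 0.13), with its sign turning to 0.02 without peritoneal control 1 and to 0.01 without peritoneal dDC 1.

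Bak1 (ENSMUSG00000057789, chr17:27019810-27029009, minus strand) was barely expressed, at 10 to 113 reads a library. Spleen dDC libraries had 3.37, 4.24 and 3.79 CPM of it, all above the 2.45, 2.14 and 2.06 CPM of spleen controls. In thymus the dDC libraries had 1.31 and 5.55 CPM, on either side of the controls at 4.32, 3.16 and 3.68 CPM. Peritoneal dDC libraries had 3.96 and 2.39 CPM and peritoneal controls 2.74 and 0.633 CPM, which overlap. Its average log2 difference was 0.52 (SE 0.47, edgeR adjusted p = 0.825), and it ranged from 0.06 to 0.99 as single libraries were left out. Its exons share 357 bases with Ggnbp1 on the other strand, at 0 to 6.53 CPM.

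Among the BH3-only genes, Bcl2l11 (ENSMUSG00000027381, chr2:128126038-128162547, plus strand) was lower than the control mean of its tissue in 6 of 7 dDC libraries. It stood at 25.2 and 25.5 CPM in peritoneal dDC libraries, against 45.0 and 60.9 CPM in controls. In thymus it stood at 32.8 and 35.6 CPM in dDC libraries, against 42.3, 66.7 and 36.9 CPM in controls. In spleen the dDC libraries had 26.9, 18.1 and 42.8 CPM, and the controls had 46.2, 39.8 and 40.4 CPM. The groups did not overlap in thymus and the peritoneal cavity, while dDC spleen library 3 lay among the controls.

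The average log2 difference of Bcl2l11 was -0.70 (SE 0.20) and did not pass the edgeR threshold (adjusted p = 0.294, unadjusted p = 0.0046). It was -0.52 (SE 0.31) in spleen, -0.51 (SE 0.35) in thymus and -1.06 (SE 0.38) in the peritoneal cavity. DESeq2 called the average (adjusted p = 0.0386), and edgeR called it in none of the 15 fits that each left out 1 library.

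Bid (ENSMUSG00000004446, chr6:120891930-120916853, minus strand), the link from death receptors to mitochondria, stood at 109 and 81.9 CPM in dDC thymus libraries, against 40.4, 66.1 and 49.98 CPM in control thymus libraries, without overlap. Spleen libraries had 85.3, 91.5 and 110.0 CPM of it in dDC and 71.3, 75.4 and 99.8 CPM in control, and peritoneal libraries 110.3 and 103 CPM in dDC and 111 and 108 CPM in control, all overlapping. The thymus difference was 0.88 on the log2 scale (SE 0.22, unadjusted p = 0.00222, edgeR adjusted p = 0.64; DESeq2 adjusted p = 0.0451). The difference between peritoneal cavity and thymus in this effect was -0.91 (SE 0.34), with an unadjusted p of 0.0195 and an edgeR adjusted p of 0.84. The exons of Bid share 628 bases with Bcl2l13 on the other strand, which stood at 18.9 to 39.8 CPM.

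Bbc3 (ENSMUSG00000002083, chr7:16309616-16318205, plus strand) and Pmaip1 (ENSMUSG00000024521, chr18:66458604-66465550, plus strand), the p53 targets, spread widely within groups. Bbc3 had 12.7 and 1.13 CPM in dDC thymus libraries and 6.90, 8.56 and 1.32 CPM in thymus controls. Spleen dDC libraries had 3.90, 1.89 and 4.71 CPM of it and spleen controls 0.742, 2.54 and 0.884 CPM, while peritoneal libraries had 1.54 and 3.78 CPM in dDC and 1.61 and 3.29 CPM in control. Its average log2 difference of 0.58 (SE 0.62) turned to -0.28 without thymus dDC 1, the library with the highest value.

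Pmaip1 had 15.2 and 18.3 CPM in dDC thymus libraries and 46.4, 10.6 and 43.0 CPM in thymus controls, with a thymus log2 difference of -0.99 (SE 0.66). Spleen dDC libraries had 21.0, 9.82 and 27.8 CPM of it and spleen controls 14.6, 22.1 and 8.75 CPM. Peritoneal libraries had 19.5 and 10.8 CPM in dDC and 18.3 and 35.7 CPM in control. Both p53 targets overlapped between dDC and control in every tissue, and neither passed the test.

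Counted over members, groups did not overlap for 3 of 10 genes in spleen, 4 of 10 in thymus and 4 of 10 in the peritoneal cavity. Over all tested genes the shares were 10.1%, 19.4% and 34.1%, so the members' count in the peritoneal cavity was near that of all genes. The median log2 difference of the 10 genes in the average was 0.18, against -0.02 over all tested genes.

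Bcl2 lay below the control mean of its tissue in 7 of 7 dDC libraries and Bcl2l11 in 6. Pmaip1 did so in 5 and Bax in 4. In the other direction, Bcl2l1, Bak1, Bid and Bcl2a1b lay above that mean in 6 of 7, and Mcl1 and Bbc3 in 5. The share of all genes with such counts was not taken. Of the members, the promoters of Bcl2 and Bcl2l11 are shown. Both are RefSeq sequences of GRCm38.p6 that run from 250 bases before to 50 after the gene start in RefSeq, at chr1:106714241-106714540 (minus strand) for Bcl2 and chr2:128125788-128126087 (plus strand) for Bcl2l11. For Bcl2 the RefSeq start lies upstream of the start in the gene coordinates given above; for Bcl2l11 both starts are the same. Capitals mark the letters TGACGT, the core of sites bound by CREB factors, 107 bases before the RefSeq start of Bcl2, and GTAAACA, the core of sites bound by FOXO factors, 227 bases before that of Bcl2l11.
Bcl2: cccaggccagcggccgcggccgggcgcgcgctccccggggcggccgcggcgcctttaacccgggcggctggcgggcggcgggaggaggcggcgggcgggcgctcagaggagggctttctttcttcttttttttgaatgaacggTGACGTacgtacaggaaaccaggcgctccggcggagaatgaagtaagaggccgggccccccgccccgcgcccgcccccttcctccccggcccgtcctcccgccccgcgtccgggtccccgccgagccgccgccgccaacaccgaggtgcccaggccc
Bcl2l11: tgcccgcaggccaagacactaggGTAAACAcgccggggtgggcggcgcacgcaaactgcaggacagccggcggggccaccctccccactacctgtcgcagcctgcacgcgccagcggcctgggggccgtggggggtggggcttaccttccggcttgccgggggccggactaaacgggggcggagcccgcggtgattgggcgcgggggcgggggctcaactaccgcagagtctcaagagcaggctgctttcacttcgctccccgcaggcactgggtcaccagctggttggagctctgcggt
Searched on both strands, TGACGT occurred in 7.51% and GTAAACA in 3.65% of 32851 promoters of this length. Of the 14 promoters listed for 9 members, GTAAACA was in 1 of Bcl2l11 and 1 of Bbc3, and TGACGT in that of Bcl2. Any match in a Pmaip1 promoter was left out of these member counts. A match describes letters in a window; binding was not measured.

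Because protective and BH3-only proteins act against each other, their transcript ratio was followed within each library, which removes library scaling. CPM was not divided by exon length here, so a ratio compares libraries and not the levels of its genes. The log2 ratio of Bcl2 to Bcl2l11 averaged 2.31 ± 0.71 in dDC spleen and 2.79 ± 0.46 in control spleen (SD, n = 3 each). It averaged 2.89 ± 0.17 in dDC thymus (n = 2) and 3.05 ± 0.77 in control thymus (n = 3), and 2.81 ± 0.10 in dDC and 3.05 ± 0.47 in control peritoneal libraries (n = 2 each). The libraries overlapped in all 3 tissues, and the means differed by less than the larger SD of each pair.

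The log2 ratio of Bcl2l1 to Bcl2l11 separated in spleen and in the peritoneal cavity. In spleen it was 2.01, 2.49 and 1.35 in dDC libraries and 0.65, 0.63 and 1.08 in controls. It was 1.94 and 1.61 in dDC thymus and 1.29, 0.56 and 2.17 in control thymus, which overlap. In the peritoneal cavity it was 1.70 and 1.42 in dDC libraries and 0.34 and -5.66 in controls, without overlap, the last being the library with 19 reads of Bcl2l1. The log2 ratio of Mcl1 to Pmaip1 averaged 3.81 in dDC and 3.87 in control spleen, 4.31 in dDC and 3.70 in control thymus, and 4.39 in dDC and 3.76 in control peritoneal libraries, with overlap throughout. These ratios were not tested, and the share of all gene pairs that separate was not taken. Of single genes tested, 10.1% in spleen and 34.1% in the peritoneal cavity did not overlap between genotypes.

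**Figure D3:**
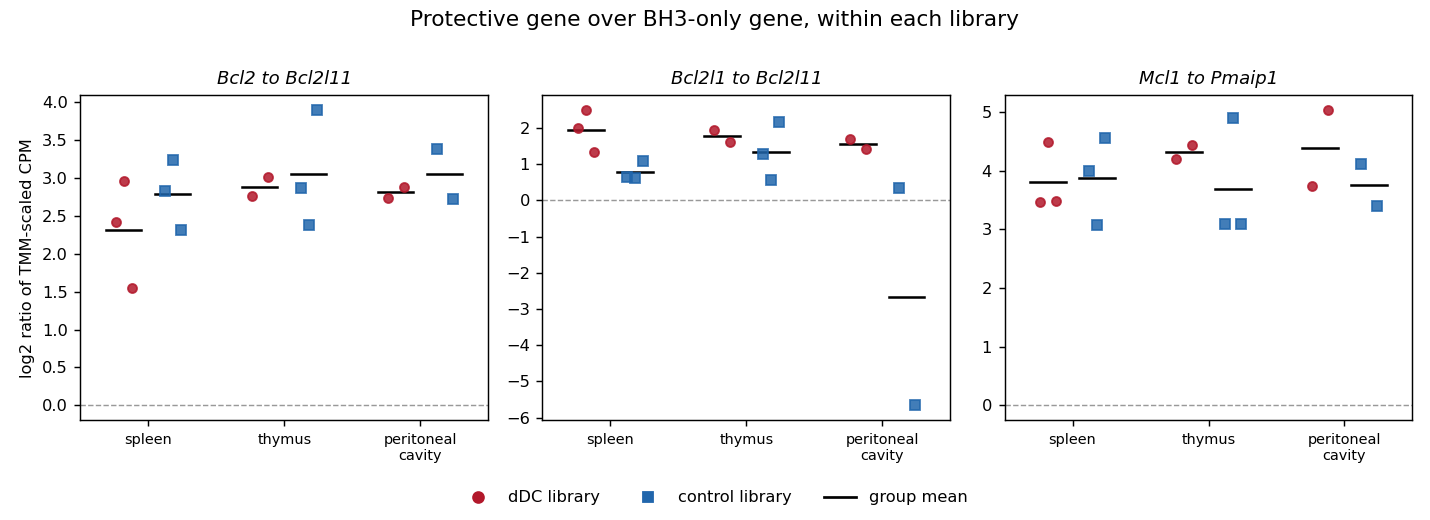
Log2 ratio of a protective gene to a BH3-only gene within each library, from TMM-scaled CPM not divided by exon length. Red circles are dDC libraries, left of control libraries as blue squares. Black bars are group means and the dashed line marks equal CPM. Bcl2 to Bcl2l11 overlaps between genotypes in every tissue. Bcl2l1 to Bcl2l11 separates in spleen, where dDC libraries lie between 1.35 and 2.49 and controls between 0.63 and 1.08. It also separates in the peritoneal cavity, where dDC libraries lie at 1.70 and 1.42 and controls at 0.34 and -5.66. Of single genes tested, 10.1% separate in spleen and 34.1% in the peritoneal cavity.

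The second question was how the family differs between the places from which Tregs were taken, over both genotypes. Bcl2a1b was the member that passed the test: it was lower in peritoneal Tregs. The 4 peritoneal libraries had 7.10 to 18.2 CPM, against 21.4 to 29.96 CPM in the 6 spleen libraries and 19.6 to 36.5 CPM in the 5 thymus libraries, so the peritoneal libraries lay below all others (2.76% of genes did so against spleen and 3.87% against thymus). The log2 difference was -1.17 (SE 0.21) for peritoneal cavity against spleen (2.24-fold lower, edgeR adjusted p = 0.0106) and -1.20 (SE 0.22) for peritoneal cavity against thymus (2.29-fold lower, adjusted p = 0.00682). That is 1 of 10 members in each comparison, where 2.89% and 5.61% of all genes were called.

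The call against thymus held in each of the 15 fits that left out 1 library. The call against spleen was lost without peritoneal dDC 1 (edgeR adjusted p = 0.0574). In controls alone the differences were -1.56 against spleen and -1.41 against thymus, both called (0.0398 and 0.0299). The copy Bcl2a1d had 7.36 to 12.4 CPM in peritoneal dDC and 5.19 to 10.1 CPM in peritoneal control libraries, and 24.3 to 25.9 CPM in thymus dDC and 10.2 to 22.0 CPM in thymus control libraries. It too was lower in peritoneal Tregs than in thymus, with a log2 difference of -1.25 (SE 0.31, adjusted p = 0.0365), a call lost in 13 of the 15 fits that left out 1 library (adjusted p up to 0.136). Against spleen the log2 difference of Bcl2a1d in peritoneal Tregs was -0.91 and did not pass (edgeR adjusted p = 0.167). Markers of other cell types moved in the same comparisons.

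The 10 B cell markers summed to 1177 to 2408 CPM in peritoneal libraries, 42.4 to 89.4 CPM in thymus and 403 to 1204 CPM in spleen; 1 of 10 was called higher in peritoneal cavity against spleen and 9 of 10 against thymus, with Pax5 and Blnk at 0 in thymus dDC libraries. The 8 Treg and T cell markers summed to 6896 and 8235 CPM in dDC and 6196 and 7029 CPM in control peritoneal libraries, 8937 and 9634 CPM in dDC and 8789 to 10220.3 CPM in control thymus libraries, and 9564 to 10235 CPM in dDC and 9636 to 10003 CPM in control spleen libraries. Of these 8, 3 were called lower in peritoneal cavity against spleen and 5 against thymus. The 8 erythroid markers summed to 1.13 and 333 CPM in dDC and 6.91 and 82.1 CPM in control peritoneal libraries, 0.736 and 1.75 CPM in dDC and 2.53 to 316 CPM in control thymus libraries, and 1942 to 3483 CPM in dDC and 2404 to 6656 CPM in control spleen libraries. Of the 7 tested, 3 were called lower in peritoneal cavity against spleen and 5 in thymus against spleen, and Klf1 and Slc4a1 were at 0 in all peritoneal libraries. In thymus against spleen 9 of 10 B cell markers were called lower. Of 6 developing thymocyte markers tested, 1 was called higher in thymus against spleen and 2 lower in peritoneal cavity against thymus. In the latter comparison, 2 of 8 macrophage, 2 of 8 dendritic cell and 2 of 7 NK and cytotoxic cell markers tested were called higher. Some genes of these last lists were called against spleen as well. The part of all these markers in the tissue differences of the BCL-2 family was not tested.

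No member passed in thymus against spleen (1.32% of genes called; 2 of 10 members had an unadjusted p under 0.05). Closest was Mcl1, at 278 to 396 CPM in thymus and 186 to 312 CPM in spleen, with a log2 difference of 0.59 (SE 0.14, edgeR adjusted p = 0.0619). It passed without spleen dDC 3 (0.68, adjusted p = 0.0427), under DESeq2 (0.00137) and without a filter on low counts (0.0291). Mcl1 differed by 0.50 (SE 0.14, adjusted p = 0.098) between peritoneal cavity and spleen. Bcl2 differed by 0.66 (SE 0.18, adjusted p = 0.121) between thymus and spleen and by 0.46 (adjusted p = 0.295) between peritoneal cavity and spleen.

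Bid lay just beyond the threshold between peritoneal cavity and thymus, at 103 to 111 CPM in the 4 peritoneal and 40.4 to 109 CPM in the 5 thymus libraries, with a log2 difference of 0.61 (SE 0.17, edgeR adjusted p = 0.0578). In controls alone it was 1.07 and called (adjusted p = 0.0286); it was also called without thymus control 2 (0.0242) or spleen control 3 (0.0474). Bcl2l1 was lower in all peritoneal libraries (1.20 to 81.7 CPM) than in all thymus libraries (98.2 to 166 CPM), but its log2 difference of -1.36 (SE 0.65) did not pass (adjusted p = 0.296); it passed without peritoneal control 2, the library with 19 reads (-0.88, adjusted p = 0.0358), and without peritoneal control 1 (-3.65, 3.79e-05). Bbc3 differed by 1.49 (adjusted p = 0.436) between thymus and spleen, and by 0.19 without thymus dDC 1.

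**Figure D4:**
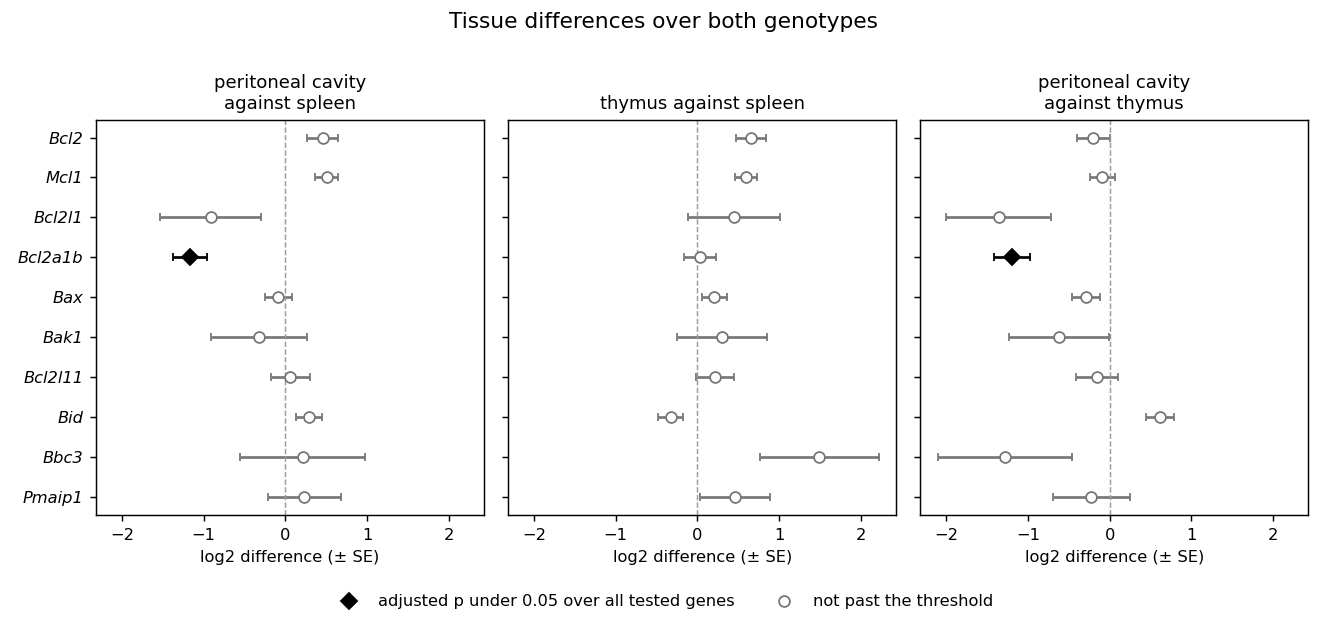
Log2 difference of each gene between tissues over both genotypes, with bars of 1 standard error; black diamonds mark an adjusted p under 0.05. Bcl2a1b is the diamond in both comparisons that involve the peritoneal cavity, at -1.17 against spleen and -1.20 against thymus, and no gene is marked in thymus against spleen.

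The wider pathway was read from 4 lists, and in dDC against control none of their genes was called in the average or in any tissue. Of the 16 other BCL-2 family genes 14 were tested, and the 2 with the smallest p in the average were Bok, a pore former relative, with a log2 difference of 2.76 (edgeR adjusted p = 0.627; 0.32 without thymus dDC 2 and 4.39 without spleen control 2) at 0 to 2.89 CPM, and Bnip3, a mitophagy receptor, with -0.59 (0.652). Of 14 genes downstream of BAX and BAK, all tested, these were the caspase-regulating ubiquitin ligases Birc3, with -0.26 (0.463), and Birc2, with -0.22 (0.588). Of 10 genes upstream of BID, all tested, they were Cflar, the caspase-8 inhibitor, with -0.14 (0.768), and the death receptor Tnfrsf10b, with 0.52 (0.777). Of 16 regulators of the family, all tested, they were Myb, with 1.13 (0.224), and the interleukin-7 receptor Il7r, with 0.40 (0.35). The median log2 differences of the 4 lists were 0.21, 0.08, 0.00 and 0.05, against -0.02 over all genes.

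Between tissues, 6 of 16 regulators were called in peritoneal cavity against spleen, 3 of 16 in thymus against spleen and 7 of 16 in peritoneal cavity against thymus, where 2.89%, 1.32% and 5.61% of all tested genes were called. The B cell, Treg, erythroid, developing thymocyte and other markers described above moved in the same comparisons. Their part in these values was not tested. Il2ra is in both the regulator and the Treg list. The kinase gene Pim1 rose in peritoneal Tregs, with 1164 to 1649 CPM in dDC and 1471 to 1613 CPM in control libraries, against 362 to 511 CPM in dDC and 393 to 489 CPM in control spleen libraries (log2 difference 1.74, SE 0.15, edgeR adjusted p = 0.000108). Il7r rose as well, by 0.91 (adjusted p = 0.00684). Genes that fell were Myb, with a log2 difference of -5.80 (adjusted p = 2.64e-05), the interleukin-2 receptor chain Il2rb, with -0.84 (0.00192), Trp53, which encodes p53, with -0.57 (0.00308), and the repressor gene Bcl6, with -2.27 (0.0445). The call of Bcl6 was lost in 10 of the 15 fits that each left out 1 library, with an adjusted p of up to 0.181.

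In thymus against spleen Stat5a, which carries interleukin-2 signals, rose by 0.94 (edgeR adjusted p = 0.00198), Stat5b by 0.59 (0.0462) and Myb by 1.33 (0.0404). With 1 library left out, Stat5b lost its call in 10 of 15 fits (adjusted p up to 0.221) and Myb in 9 (up to 0.108). In peritoneal cavity against thymus Pim1 rose by 1.13 (0.00173) and Il7r by 0.67 (0.0309), a call that 5 of the 15 left-out libraries ended (up to 0.129). Of the 5 genes that fell, the 4 with the smallest p had log2 differences of -7.13 for Myb (7.41e-06), -0.85 for Il2rb (0.00126), -0.97 for Il2ra (0.00176) and -0.73 for Stat5a (0.00689).

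In the other lists few genes were called between tissues. Against thymus, peritoneal Tregs had less Birc3 (log2 difference -0.66, edgeR adjusted p = 0.0108), less of the death receptor Fas (-0.98, 0.00309) and less of the death ligand Tnfsf10 (-1.42, 0.0101). Fas and Tnfsf10 were 2 of the 10 genes upstream of BID, where 5.61% of all tested genes were called. Bid itself differed in the other direction, by 0.61, and was not called (edgeR adjusted p = 0.0578).

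The tested genes with levels most like those of Bcl2 over the 15 libraries were Ugcg, Usp3, Trmt5, Vti1a and Atg16l1. The measure is the root mean square difference between centred log2 CPM profiles, which was 0.34 for Ugcg, 0.36 for Usp3, 0.38 for Trmt5, 0.39 for Vti1a and 0.41 for Atg16l1, against a median of 0.82 over 9462 genes with at least 5 CPM. Bcl2l11 stood at 0.51 and Mcl1 at 0.62. The SD of Bcl2 around its own mean, 0.65, is about what a flat profile would score. By this measure Mcl1 was hardly closer to Bcl2 than a flat profile. None of these 5 genes was called in dDC against control; Ugcg, which encodes a glycolipid synthase, came to -0.81 on the log2 scale in the average (SE 0.21, edgeR adjusted p = 0.225).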

How the data were processed

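Messenger RNA of sorted Tregs was measured in 15 libraries. Per the labels' protocols, cDNA was made from a poly-dT primer with template switching, amplified for 12 cycles, sheared, and made into libraries with chemistry that does not mark the strand. The submitters' processing notes list bcl2fastq 2.19.1, the aligner GSNAP and the read counter featureCounts 1.6.0 with build mm10; how reads with several matches were handled is not given in the sources used here. A single table of raw counts per gene was deposited by the authors. Its 92 spike-in rows (at most 6 reads a library) were left out, and symbols were found for 98.8% of genes.

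Genes were filtered with filterByExpr (18423 kept, with 99.93% of counts). A quasi-likelihood model in edgeR 4.0.16 (R 4.3.3) with TMM scaling and a mean for each of the 6 groups (9 residual degrees of freedom) was fitted to all libraries. Tests were two-sided with Benjamini-Hochberg adjustment over all tested genes and a threshold of 0.05; the procedure was tested on simulated data. The dDC difference was taken in each tissue, averaged, and compared between tissues; tissues were compared over both genotypes. Alternatives were DESeq2 1.42.0, its size factors, limma-voom 3.58.1, no filter, a replicate block, fits on fewer groups and leaving out each library. Depth sets the counting error; beyond it, the biological coefficient of variation had a median of 0.55 over genes and was 0.22 for Bcl2. The 10 genes were always named; of each list, up to 4 called genes in each direction, or the 2 with the smallest p, and the 5 genes most like the member with the smallest p. Members and lists were chosen with earlier results of these data known. A result of the lists, between tissues, is not reported here.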

Additional observations from a re-analysis of the deposited data

How the results depend on the processing

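The number of members called was recomputed for each comparison. DESeq2 in place of edgeR called 2 members in the dDC average (Bcl2 and Bcl2l11) and 1 each in spleen (Bcl2), thymus (Bid) and peritoneal cavity (Bcl2). It called 2 in peritoneal cavity against spleen, 2 in thymus against spleen and 2 in peritoneal cavity against thymus. Over all genes DESeq2 called 384, 32, 153 and 194 in these dDC comparisons and 1241, 966 and 2039 between these tissues. The edgeR counts were 14, 0, 0 and 1 in the former and 533, 243 and 1034 in the latter. With limma-voom the counts were 0 in the dDC average (21 of all genes) and 3 in peritoneal cavity against thymus (1083 of all genes). The average of spleen and thymus alone called 0 members (3 of all genes). No filter on low counts called 1 in thymus against spleen (Mcl1, with 313 of all genes). Controls alone called 2 in peritoneal cavity against thymus (Bid and Bcl2a1b, with 455 of all genes). The other alternatives to the count, apart from left-out libraries and the block, stayed within 1.5 times of it.

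Over the 15 left-out libraries the count ranged from 0 to 2 in the dDC average, 0 to 1 in the peritoneal cavity, 0 to 2 in peritoneal cavity against spleen, 0 to 1 in thymus against spleen, 1 to 2 in peritoneal cavity against thymus, and 0 to 1 in each interaction that involves the peritoneal cavity. In spleen, in thymus and in thymus minus spleen it stayed at 0. Where a group was left with 1 library, its spread is assumed to be that of the other groups.

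Signs turned for small differences. Mcl1 in the dDC average came to -0.0048 under DESeq2 size factors and under DESeq2, and to -0.036 with the block; with single libraries left out it ranged from -0.083 to 0.082, Bax from -0.16 to 0.024, Bbc3 from -0.28 to 0.88, and the Bcl2 interaction of peritoneal cavity minus spleen from -0.34 to 0.067. Size factors moved the median of all genes by at most 0.02.

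Neighbouring library numbers within a tissue were tried as a replicate block, since the labels number the libraries. Deviations of such neighbours from their group means correlated between -0.005 and 0.10. With so few libraries a group, these values cannot show whether neighbours share more than a number. With this replicate block no member was called: 0 in the dDC average (Bcl2 adjusted p = 0.221), 0 in peritoneal cavity against spleen and 0 in peritoneal cavity against thymus, with 4 residual degrees of freedom in place of 9. Over all genes, the counts in the dDC average were 14 in edgeR, 384 in DESeq2, 21 in limma-voom, 39 without a filter, 0 with the block and 3 for spleen and thymus alone.

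Depth limits Bak1 (10 to 113 reads a library), Bbc3 (13 to 231) and, in peritoneal control 2, Bcl2l1 (19). Peritoneal groups have 2 libraries each, and 0.244% of genes share the complete separation of Bcl2.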
